A study of Bos taurus with 45 samples.

Results

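*BOLA-A* (ENSBTAG00000005182) and *B2M* (ENSBTAG00000012330) were followed through 45 samples of bovine ruminal papillae. *BOLA-A* is a heavy chain gene of the major histocompatibility complex (MHC) class I molecule, and *B2M* is its light chain gene. They are 2 of the 24616 genes with a value in every sample, and they were chosen by values measured in these same samples, namely the share of their variance that lay between heifers, the share that lay between diets, and their levels in the ruminal pH groups. Their diet differences, shares of variance and pH group levels are therefore given as a description, without tests. Messenger RNA was sequenced from papillae biopsied from the ventral sac of the rumen in 15 Angus-Hereford cross-bred yearling heifers, each sampled on 3%, 75% and 92% grain. All heifers went through the same change of diet in an experiment of 29 days, with 3% grain on days 1 to 4, 75% grain on days 13 to 16 and 92% grain from day 21, and no heifers kept on 3% grain are compared here, so that diet and day of the experiment cannot be told apart. The pH groups, with 5 heifers each, are those the study formed from the change in mean ruminal pH between 75% and 92% grain: pH fell in the down group (DG), rose in the up group (UG) and changed little in the balanced group (BG).

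The class I molecule sits on the surface of nearly all nucleated cells and shows peptides from inside the cell to CD8+ T cells. Its heavy chain holds the peptide and is among the most variable proteins between individuals, and cattle differ both in their heavy chain alleles and in which heavy chain genes a haplotype carries. Its light chain, beta-2-microglobulin, varies little, is encoded by the single gene *B2M*, and also pairs with non-classical class I heavy chains. Both genes are known to respond to interferon gamma and to the regulator NLRC5.

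The values are RPM, in which the reads of a gene are scaled to 1000000 reads over all genes, so that a level of *BOLA-A* and a level of *B2M*, which differ in length, are not compared with each other. The samples held 22.5 to 37.1 M reads on genes (M, 1000000 reads), with medians of 30.8, 28.4 and 31.0 M on 3%, 75% and 92% grain. *BOLA-A* had from 26 to 484 reads in a sample, with a median of 250, and *B2M* had from 6840 to 27369 reads, with a median of 12332. After the diet mean of each gene was subtracted, 32 of the 45 samples were most like another sample of the same heifer over all genes tested. The samples of heifer 172 on 3% grain and heifer 286 on 92% grain lay farthest from the others of their diet. The files give IDs without gene names, so the papillae could not be checked against markers of keratinocytes or leukocytes, and in bulk tissue fewer cells of a type and less RNA per cell cannot be told apart.

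*BOLA-A*, a heavy chain gene, differed between heifers far more than between diets. The rows of other heavy chain copies were not identified here, so its values are not those of all heavy chain RNA. On 3% grain its level was 9.11 ± 3.64 RPM (SD, n = 15), from 1.52 to 15.2 RPM with a median of 8.93 RPM. On 75% grain it was 8.23 ± 2.86 RPM, from 0.963 to 12.2 RPM with a median of 8.50 RPM. On 92% grain it was 8.21 ± 3.40 RPM, from 0.989 to 13.1 RPM with a median of 8.65 RPM. The 3 diets overlapped over almost their whole range, and the difference of their means was smaller than the SD between heifers on any of them. Within each diet, the heifer with the most *BOLA-A* had 10.1, 12.7 and 13.2 times the RPM of the heifer with the least on 3%, 75% and 92% grain.

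The heifers kept their order from diet to diet. Heifer 170 had the lowest *BOLA-A* level on each diet, with 1.52, 0.963 and 0.989 RPM on 3%, 75% and 92% grain. Heifer 314 had the highest level on 3% and 75% grain, with 15.2, 12.2 and 11.7 RPM over the 3 diets. Heifer 294, with 12.6, 10.6 and 13.1 RPM, was highest on 92% grain. Heifers that were low or high on one diet were thus mostly low or high on the others. Across the 15 heifers, the level of *BOLA-A* on 3% grain correlated with that on 75% grain at Pearson's r = 0.83 and Spearman's rho = 0.79, and with that on 92% grain at r = 0.88 and rho = 0.85. Between 75% and 92% grain, r was 0.94 and rho was 0.88. Without heifers 314 and 170, which lay farthest from the median, the 3 values of r were 0.65, 0.81 and 0.91 (n = 13). The order of the heifers therefore did not rest on these animals, although r between 3% and 75% grain was lower without them.

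Averaged over the 3 diets, *BOLA-A* ran from 1.16 ± 0.312 RPM (SD, n = 3) in heifer 170 to 13.1 ± 1.9 RPM in heifer 314, an 11.3-fold range. The next lowest heifers were 262 with 4.95 ± 1.43 RPM, 236 with 5.84 ± 1.59 RPM and 352 with 6.24 ± 2.19 RPM. Heifer 170 thus stood apart from all other heifers. Measured from heifer 262, the range was 2.64-fold. The next 7 heifers had means from 7.43 RPM in heifer 172 to 9.48 RPM in heifer 182, and above them stood heifers 362, 294, 360 and 314 with 11.1, 12.1, 12.8 and 13.1 RPM. Most neighbours in this order could not be separated, since the 3 values of a heifer overlapped those of the next heifer in 12 of 14 steps. The steps without overlap were from heifer 170 to heifer 262 and from heifer 182 to heifer 362. Within a heifer, the highest of the 3 values was 1.06 to 2.11 times the lowest, with a median of 1.23, and it passed 1.5 times in 4 heifers.

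**Figure D1:**
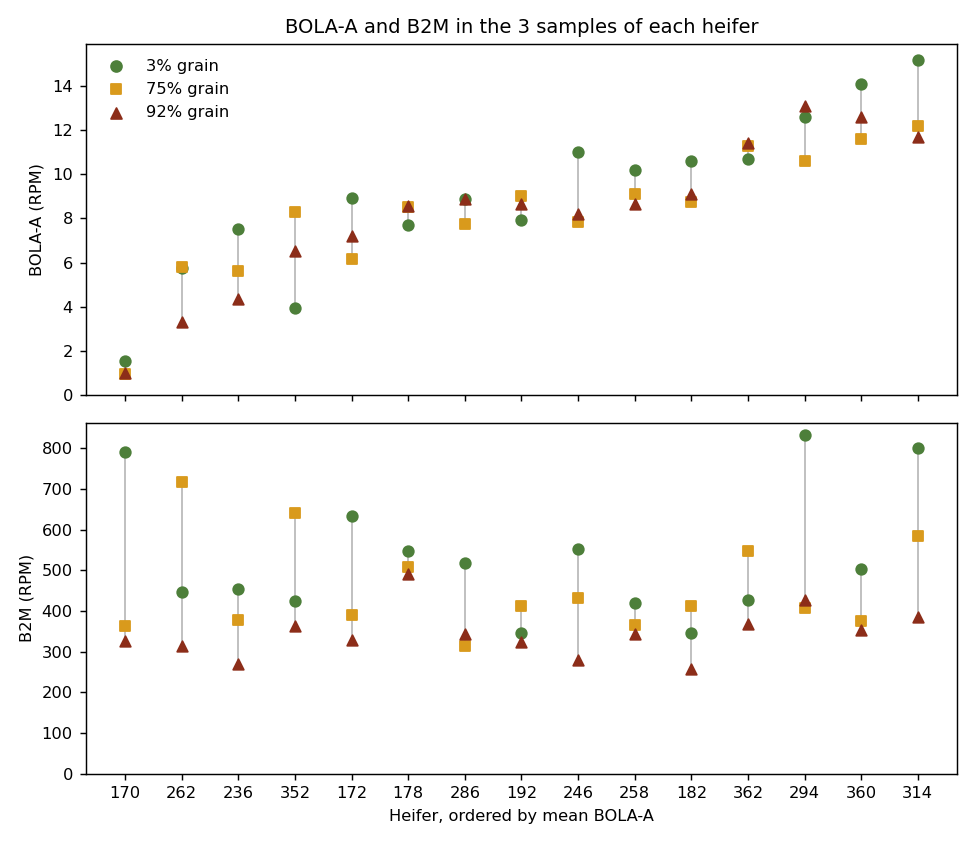
RPM of BOLA-A (upper panel) and B2M (lower panel) in each heifer, with the heifers ordered by mean BOLA-A. Each point is 1 sample (circle, 3% grain; square, 75%; triangle, 92%) and the grey line joins the lowest and highest sample of a heifer. BOLA-A rose along the order from 1.16 to 13.1 RPM with mostly short lines, whereas B2M had no such order and its 92% samples sat at or near the foot of the lines.

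Of the variance of *BOLA-A* on the log2(RPM + 1) scale, 92.6% lay between heifers, 0.893% between diets and 6.5% in neither. Over the 11516 genes tested (those with RPM over 1 in all 15 heifers on at least 1 diet), the medians of these shares were 39.5%, 8.86% and 46.6%, and the degrees of freedom alone would give 31.8%, 4.55% and 63.6%. Only 4 of these genes had a larger share between heifers than *BOLA-A*, with 93.4% to 98.1%, and 13 genes passed 90%. Among the 2768 genes with a mean of 5 to 15 RPM, the median share between heifers was 38.6%, and 5 genes, *BOLA-A* included, passed 90%. *BOLA-A* was chosen by its share, so these values only place it among the genes. As a background, the heifer terms were significant for 2542 genes, or 22.1% of those tested (limma F-test with diet in the model, Benjamini-Hochberg adjusted p under 0.05).

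Heifer 170 carried a part of this share. Without its 3 samples, 80.1% of the variance of *BOLA-A* lay between heifers, 1.9% between diets and 18.0% in neither, and 107 genes had a larger share between heifers. On the log2(RPM + 1) scale, the heifer means had an SD of 0.67, and what remained after heifer and diet had an SD of 0.22. Read counting alone would give an SD of 0.0862, which is 15.6% of that remaining variance.

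The study had paired the symbols of 10 other genes with IDs in a list of genes detected on a single diet. The list was drawn up on these same samples and also held *BOLA-A*. Genes that it gave without a symbol were left out here. Their share of variance between heifers ran from 11.9% for *LOXL2*, a lysyl oxidase that cross-links collagen, to 80.6% for the gene listed as *RASL1A*. *CXorf57* followed with 74.2%. The immediate early gene *FOSB*, the growth factor gene *BMP6* and *VNN1*, which encodes the pantetheinase vanin 1, were listed with *BOLA-A* for 3% grain and had 29.0%, 21.7% and 26.8% of their variance between heifers. The share of *BOLA-A*, a gene chosen by that share, was larger than that of each of the 10.

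**Figure D2:**
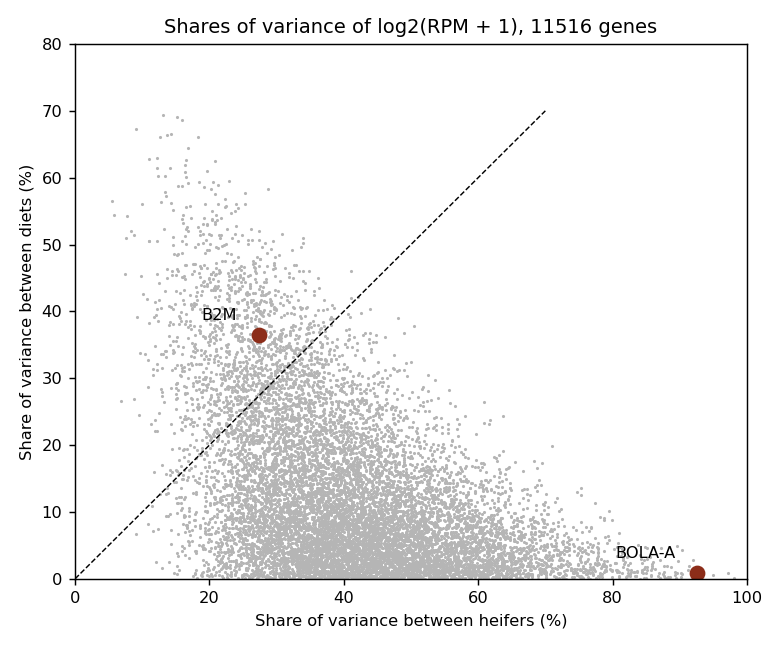
Share of the variance of log2(RPM + 1) between heifers (x axis, percent) and between diets (y axis, percent) for the 11516 genes tested, 1 grey point per gene, with BOLA-A and B2M in red and a dashed line where the shares are equal. BOLA-A lies at the right end of the genes, at 92.6% and 0.893%, and B2M lies above the line, at 27.4% and 36.5%.

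The low level in heifer 170 also set whether *BOLA-A* counted as detected. With detection taken as RPM over 1 in all 15 heifers, *BOLA-A* was detected on 3% grain, with 15 of 15 heifers above the limit, and not on 75% or 92% grain, with 14 of 15 above it. *B2M* passed in 15 of 15 heifers on every diet, so that both genes entered the 11516 genes tested, *BOLA-A* through 3% grain alone. Heifer 170 had 45 *BOLA-A* reads on 3% grain, or 1.52 RPM with an exact Poisson 95% interval of 1.11 to 2.03 RPM. It had 26 reads on 75% grain, or 0.963 RPM (0.629 to 1.41), and 29 reads on 92% grain, or 0.989 RPM (0.662 to 1.42). These intervals cover counting error only, and they are too narrow if both mates of a read pair were counted. On 75% and 92% grain they lie on both sides of 1 RPM. The next lowest heifers had 3.92, 5.61 and 3.30 RPM on 3%, 75% and 92% grain, well above the limit. Of the 43 genes detected on 3% grain only, 12 missed the limit through 1 heifer on each other diet, and for 3 of them, *BOLA-A* included, it was the same heifer.

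Heifer 170 had 29.7, 27.0 and 29.3 M reads on genes, where the medians of the 3 diets were 30.8, 28.4 and 31.0 M. The part of depth in the low *BOLA-A* level of heifer 170 was not tested. Its 3 *BOLA-A* values lay under all 42 values of the other heifers, a pattern that 115 genes (0.999%) showed for some heifer and 24 genes (0.208%) showed for heifer 170. Its *B2M* level was not low: on 3% grain it had 790 RPM (780 to 800), the third highest of the 15 heifers, followed by 364 and 326 RPM on the later diets. Class I heavy chain genes are near-identical copies that differ in sequence between animals. Reads of an allele unlike the reference, or of a copy that maps equally well elsewhere, may not be counted on this row, so a level of *BOLA-A* is the level of reads assigned to it and is uncertain as a measure of all heavy chain RNA. The part of such reads in the differences between heifers was not tested. The 4 symbols of this family that were looked up (*BOLA*, *BOLA-NC1*, *BoLA* and *JSP.1*) are all in the current RefSeq table of cattle genes. This is not a count of the family there, and the rows of the other copies were not identified here.

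Between diets, *BOLA-A* moved little and in both directions. From 3% to 75% grain its change within heifers averaged -0.11 ± 0.35 on the log2(RPM + 1) scale (SD, n = 15; SE 0.09), with 5 heifers higher and 10 lower. It averaged -0.19 without heifer 352, and also after TMM scaling. From 3% to 92% grain the change averaged -0.15 ± 0.33 (SE 0.08), again with 5 higher and 10 lower. From 75% to 92% grain it averaged -0.04 ± 0.24 (SE 0.06), with 9 higher and 6 lower. Each mean change was smaller than the SD of the change between heifers. The ratio of 75% to 3% grain ran from 0.635 in heifer 170 to 2.11 in heifer 352, which went from 3.92 to 8.28 RPM.

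*B2M*, the light chain gene, had the opposite make-up: its level fell with grain, and the heifers did not keep their order. On 3% grain it was 537 ± 160 RPM (SD, n = 15), from 346 to 834 RPM with a median of 504 RPM. On 75% grain it was 457 ± 117 RPM, from 315 to 717 RPM with a median of 412 RPM. On 92% grain it was 345 ± 60.2 RPM, from 257 to 492 RPM with a median of 344 RPM. The diets overlapped, but the median on 92% grain lay just below the lowest value on 3% grain. The spread between heifers also narrowed, with a coefficient of variation of 29.8% on 3%, 25.6% on 75% and 17.4% on 92% grain. The heifer with the most *B2M* had 2.41, 2.27 and 1.91 times the RPM of the heifer with the least.

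Every heifer had less *B2M* on 92% than on 3% grain. The change within heifers averaged -0.60 ± 0.37 on the log2(RPM + 1) scale (SD, n = 15; SE 0.10), and the mean level on 92% grain was 0.643 times that on 3% grain. A lower value on 92% grain in 15 of 15 heifers was found for 0.174% of the genes tested, *B2M* being one of the 20. The ratio ran from 0.413 in heifer 170, which went from 790 to 326 RPM, to 0.932 in heifer 192, which went from 347 to 323 RPM, with a median of 0.702. The heifers thus shared the direction and differed in the size of the change. The median change of all genes tested was 0.06 on the same scale.

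The intermediate diet split the heifers. From 3% to 75% grain *B2M* changed by -0.22 ± 0.56 (SD, n = 15; SE 0.14), higher in 5 heifers and lower in 10, and 12.3% of the genes tested were lower in at least as many. The 5 heifers in which it was higher (192, 182, 362, 262 and 352) had 346 to 448 RPM on 3% grain, and the 10 in which it was lower had 421 to 834 RPM. The heifers that went up thus mostly began lower, but the ranges overlapped, since heifer 258 went from 421 down to 366 RPM. The value on 3% grain enters both sides of this description. Heifer 262 had the largest rise, from 448 to 717 RPM, and heifer 170 the largest fall, from 790 to 364 RPM. From 75% to 92% grain the change was -0.38 ± 0.37 (SE 0.10), lower in 13 of 15 heifers, and 2.54% of the genes tested were lower in at least as many. The exceptions were heifer 294, from 407 to 427 RPM, and heifer 286, from 315 to 344 RPM.

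Across all genes tested, limma called 177 genes (1.54%) between 75% and 3% grain, 162 of them higher on 75% grain and 15 (0.13%) lower. Between 92% and 3% grain it called 238 genes (2.07%), 205 higher on 92% grain and 33 (0.287%) lower, and after TMM scaling the split was 145 higher and 46 lower. The test of edgeR on the recovered reads called more genes lower, with 151 higher and 47 lower for 75% against 3% grain and 214 higher and 96 lower for 92% against 3% grain. Genes lower with more grain were the smaller side in the comparisons with 3% grain. Between 92% and 75% grain limma called 0 genes (0.0%), with 1330 genes at an unadjusted p under 0.05, and edgeR on the recovered reads also called 0. With the heifer as a replicate block, limma called 14 genes in this last comparison, 7 higher and 7 lower. A gene was called where its change passed 1.5-fold and its p, adjusted by the Benjamini-Hochberg method, was under 0.05.

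Of the variance of *B2M* on the log2(RPM + 1) scale, 27.4% lay between heifers, 36.5% between diets and 36.1% in neither. A larger share between heifers than between diets was found for 89.1% of the genes tested, and *B2M* was not among them. The degrees of freedom alone would give 31.8% between heifers and 4.55% between diets, so a larger heifer share is favoured from the outset. The heifer share of *B2M* lay below that 31.8%. A larger share between diets than that of *B2M* was found for 593 genes. Its heifer means had an SD of 0.22 and the remainder an SD of 0.31 on this scale, and counting error made up 0.172% of the remaining variance. The level of *B2M* thus varied at least as much from sample to sample of a heifer as from heifer to heifer. The mean over the 3 diets ran from 338 ± 77.6 RPM (SD, n = 3) in heifer 182 to 590 ± 208 RPM in heifer 314, a 1.75-fold range, and the values of neighbouring heifers in this order overlapped in 14 of 14 steps. Within a heifer, the highest of the 3 values was 1.11 to 2.42 times the lowest, with a median of 1.69, and it passed 1.5 times in 10 heifers.

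The level of *B2M* on one diet said little about its level on another. Across the 15 heifers, r between 3% and 75% grain was -0.10 (rho = -0.14), r between 3% and 92% grain was 0.40 (rho = 0.39), and r between 75% and 92% grain was 0.21 (rho = 0.19). Without the 2 heifers farthest from the median of the first diet of each pair, the values of r were -0.27, 0.17 and 0.43 (n = 13). The highest heifer was a different one on each diet: 294 on 3%, 262 on 75% and 178 on 92% grain.

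Set side by side, *BOLA-A* and *B2M* showed little relation over the heifer means and moved together within heifers. Over the means of the 15 heifers on the log2(RPM + 1) scale, r was 0.02 and rho was 0.07. Across the heifers on 3%, 75% and 92% grain, r was -0.05, 0.22 and 0.33, and rho was 0.25, 0.21 and 0.48 (n = 15 each). A weak relation between heifers is thus not excluded. Over the 45 samples, r was 0.16 and rho was 0.26. After the mean of each heifer was subtracted from both genes, r was 0.64 and rho was 0.66, and after the diet means were subtracted as well, r was 0.64 and rho was 0.65. The points of these correlations share heifers, 3 to each. Leaving out each heifer in turn gave r within heifers from 0.61 to 0.70. Over the other genes tested, the median of the same r with *BOLA-A* was 0.01, and 8 of 11515 genes (0.0695%) had a higher one than *B2M*.

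From 3% to 75% grain, *BOLA-A* and *B2M* changed in the same direction in 13 of 15 heifers, and 1.11% of the other genes tested followed *B2M* in at least as many. The exceptions were heifer 182, in which *BOLA-A* went from 10.6 to 8.75 RPM and *B2M* from 346 to 412 RPM, and heifer 178, in which *BOLA-A* went from 7.71 to 8.50 RPM and *B2M* from 548 to 509 RPM. The 5 heifers in which *B2M* was higher on 75% grain thus held 4 of the 5 in which *BOLA-A* was higher. In heifer 352, *BOLA-A* went from 3.92 to 8.28 RPM and *B2M* from 424 to 642 RPM. From 3% to 92% grain they shared the direction in 10 of 15 heifers (15.7% of genes in at least as many). *B2M* was lower in all 15 heifers over this change, so this counts only the heifers in which *BOLA-A* was lower. From 75% to 92% grain *BOLA-A* and *B2M* shared the direction in 8 of 15 heifers (52.5%). In that last step their directions met no more often than those of most genes.

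**Figure D3:**
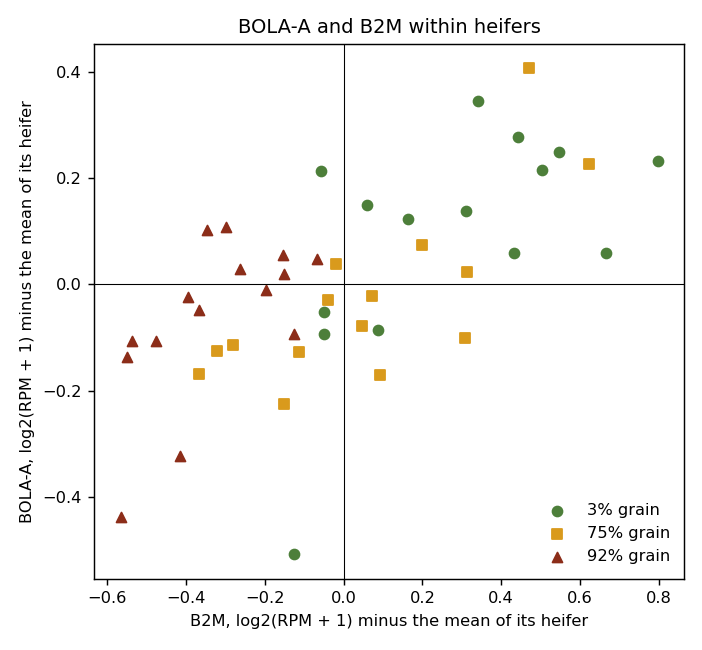
Deviation of each sample from the mean of its heifer on the log2(RPM + 1) scale, for B2M (x axis) and BOLA-A (y axis), with circles for 3%, squares for 75% and triangles for 92% grain. The 45 points run from lower left to upper right (r = 0.64), with most 3% samples to the right of 0 and all 92% samples to the left of 0 for B2M.

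Depth went with *BOLA-A* to a degree. Over the 45 samples, log2(RPM + 1) of *BOLA-A* correlated with the reads on genes at r = 0.34 and rho = 0.49, and within the 3%, 75% and 92% grain samples rho was 0.65, 0.38 and 0.52 (n = 15 each). For *B2M*, r was -0.06 and rho was -0.05 over the 45 samples. The part of depth in the differences of *BOLA-A* between heifers was not tested.

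By pH group, *BOLA-A* overlapped throughout. In DG, heifers 192, 314, 236, 170 and 182 had 7.92, 15.2, 7.53, 1.52 and 10.6 RPM on 3% grain. On 75% grain these heifers had 9.02, 12.2, 5.61, 0.963 and 8.75 RPM, and on 92% grain 8.65, 11.7, 4.37, 0.989 and 9.10 RPM. Heifer 170 was the lowest and heifer 314 the highest of this group on each diet. In BG, heifers 172, 294, 246, 362 and 258 had 8.93, 12.6, 11.0, 10.7 and 10.2 RPM on 3% grain. On 75% grain these heifers had 6.15, 10.6, 7.82, 11.3 and 9.09 RPM, and on 92% grain 7.21, 13.1, 8.21, 11.4 and 8.65 RPM. Heifer 172 was the lowest of BG throughout. In UG, heifers 262, 178, 352, 286 and 360 had 5.75, 7.71, 3.92, 8.89 and 14.1 RPM on 3% grain. On 75% grain these heifers had 5.81, 8.50, 8.28, 7.77 and 11.6 RPM, and on 92% grain 3.30, 8.55, 6.51, 8.87 and 12.6 RPM. Heifer 360 was the highest of UG throughout. DG thus held both the lowest and, on 3% and 75% grain, the highest heifer, while on 3% grain BG lacked low values.

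The means of *BOLA-A* on 3% grain were 8.56 ± 5.00 RPM in DG, 10.7 ± 1.33 RPM in BG and 8.07 ± 3.86 RPM in UG (SD, n = 5 each). On 75% grain they were 7.32 ± 4.26, 8.99 ± 2.09 and 8.39 ± 2.07 RPM, and on 92% grain 6.97 ± 4.26, 9.70 ± 2.43 and 7.97 ± 3.42 RPM. Without heifer 170, the mean of DG was 10.3 ± 3.55 RPM on 3%, 8.91 ± 2.71 RPM on 75% and 8.46 ± 3.05 RPM on 92% grain (n = 4). On 75% and 92% grain, DG lay below UG with this heifer and above UG without it. From 75% to 92% grain, the step on which the pH groups were formed, *BOLA-A* changed by -0.07 ± 0.14 in DG, 0.10 ± 0.14 in BG and -0.14 ± 0.35 in UG on the log2(RPM + 1) scale. Of the variance between heifer means, the pH group held 12.0% for *BOLA-A* (11.2% without heifer 170), where the median of all genes tested was 11.2% and the degrees of freedom alone would give 14.3%.

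*B2M* fell from 3% to 92% grain in all 5 heifers of each pH group. In DG, heifers 192, 314, 236, 170 and 182 had 347, 802, 455, 790 and 346 RPM on 3% grain. On 75% grain these heifers had 413, 584, 378, 364 and 412 RPM, and on 92% grain 323, 386, 269, 326 and 257 RPM. Heifers 314 and 170 stood far above the others of DG on 3% grain, and heifer 170 was no longer among the highest 3 on 75% grain. In BG, heifers 172, 294, 246, 362 and 258 had 635, 834, 552, 427 and 421 RPM on 3% grain. On 75% grain these heifers had 391, 407, 433, 549 and 366 RPM, and on 92% grain 330, 427, 279, 368 and 344 RPM. Heifer 294 was the highest of BG on 3% and 92% grain and not on 75% grain. In UG, heifers 262, 178, 352, 286 and 360 had 448, 548, 424, 518 and 504 RPM on 3% grain. On 75% grain these heifers had 717, 509, 642, 315 and 376 RPM, and on 92% grain 314, 492, 364, 344 and 354 RPM. Heifers 262 and 352 led UG on 75% grain, and heifer 178 on 3% and 92% grain. Among the groups, UG spread least on 3% grain and most on 75% grain.

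The mean *B2M* level on 3% grain was 548 ± 231 RPM in DG, 574 ± 171 RPM in BG and 488 ± 51.1 RPM in UG (SD, n = 5 each). On 75% grain it was 430 ± 88.6, 429 ± 71.5 and 512 ± 171 RPM, and on 92% grain 312 ± 51.6, 350 ± 53.9 and 374 ± 68.7 RPM. From 3% to 92% grain the change on the log2(RPM + 1) scale was -0.72 ± 0.47 in DG, -0.68 ± 0.39 in BG and -0.40 ± 0.19 in UG. The changes of DG and UG differed by less than the SD within DG or BG and by more than the SD within UG, and the 3 groups overlapped on every diet. From 75% to 92% grain the change was -0.45 ± 0.21 in DG, with 5 of 5 heifers lower, -0.29 ± 0.30 in BG, with 4 of 5 lower, and -0.40 ± 0.57 in UG, with 4 of 5 lower. The pH group held 6.64% of the variance between the heifer means of *B2M*, where the median of all genes tested was 11.2%. Without heifer 170 it held 10.4%, and the median was 11.3%.

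**Figure D4:**
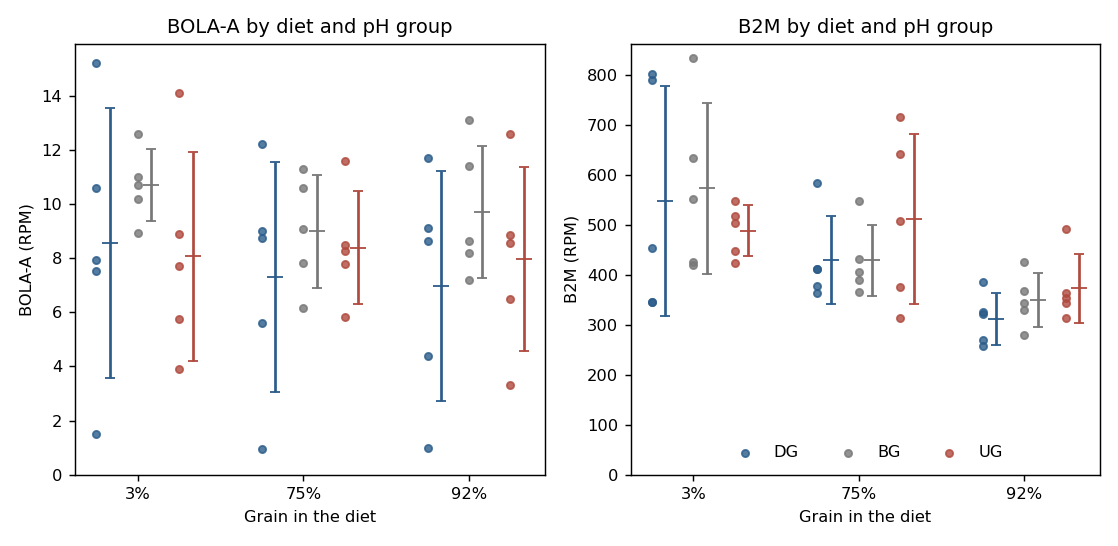
RPM of BOLA-A (left) and B2M (right) by grain in the diet and pH group, with 1 point per heifer (blue, DG; grey, BG; red, UG) and, beside the points, the mean and SD (n = 5). The groups overlap on each diet for both genes, the lowest BOLA-A points are all heifer 170 of DG, and each group mean of B2M is lower on 92% than on 3% grain.

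The genes most like each member over the 45 samples were searched among the genes tested. For *BOLA-A*, the 5 highest values of Spearman's rho of RPM were 0.54 to 0.69. The highest was that of ENSBTAG00000012208, which had 3.97 ± 2.37, 3.93 ± 2.29 and 3.68 ± 2.13 RPM on 3%, 75% and 92% grain (SD, n = 15 each) and 90.2% of its variance between heifers. For *B2M*, the 5 highest were 0.77 to 0.84, so that *B2M* had closer likes than *BOLA-A*. The highest was that of ENSBTAG00000005413, with 16.0 ± 7.06, 11.5 ± 3.52 and 8.54 ± 2.18 RPM on 3%, 75% and 92% grain, a fall and a narrowing like those of *B2M*. With heifer means subtracted, the 5 highest values of r were 0.66 to 0.75 for *BOLA-A* and 0.81 to 0.90 for *B2M*, and 1 gene was among the 5 of both. The 45 points share heifers and diets, and the files name none of these genes.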

How the data were processed

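The authors demultiplexed the reads with CASAVA 1.8, mapped them to the bovine UMD 3.1 genome with TopHat2 2.0.10, counted reads on genes of Ensembl annotation 75.30 with HTSeq and deposited the counts scaled to reads per 1000000 (RPM), 1 file per sample. Strand and multi-mapping settings are not given in the sources used here. In every sample 100% of the values were whole multiples of the RPM of 1 read (within 0.01 read), which gave the depths. These depths are larger than the reads per sample given in the study's text. Whether both mates of a pair were counted is not stated, so counting intervals may be too narrow.

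Diets are named as in the labels. The study's text gives 0%, 72% and 89% grain for them. DG and UG came from that text by heifer number, not from the labels. BG was taken as the remaining heifers, for which that text lists no numbers. *BOLA-A* was paired with its ID by the study, and *B2M* by the definition of the gene pair.

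The members and lists were chosen with earlier results of these data known. The 11516 genes tested had RPM over 1 in each of the 15 heifers on 1 or more diets. They were fitted with limma 3.58.1 (R 4.3.3) as log2(RPM + 1), letting the variance follow the mean level, within the 30 samples compared and without a heifer term. Variance was divided into heifer, diet and remainder by least squares. The text names the members, the genes whose symbols the study paired with IDs, and, of the 5 genes most like each member, the first by rho. Replicate numbers are animal IDs, so they pair the samples: the median correlation of deviations was 0.36 within heifers and -0.04 between them. No pair of samples matched within counting noise (smallest chi-square per degree of freedom 17.5 over 990 pairs). Of 252 listed symbols (antigen loading, interferon response, cell type markers) only the 2 members could be matched to IDs, so no list was counted: the RefSeq table holds no Ensembl IDs, and the study's supplementary gene lists give IDs without symbols. Alternatives were TMM scaling, a pseudocount of 0.1, no filter, the linear scale, the heifer as a block, edgeR 4.0.16 on the recovered reads, and each heifer left out. The study's own test was edgeR. Lanes were not identified. The fit was tested on simulated data.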

Additional observations from a re-analysis of the deposited data

Results flagged for a closer look

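In 5 heifers of a pH group on 1 diet, a value was singled out where its gap to the nearest value exceeded 0.71 of the range (Dixon's 95% limit for 5 samples). Of 18 groups (both genes, 3 diets, 3 pH groups), 2 held such a value, and chance gives about 1 in 20. In DG on 75% grain, heifer 314 had 584 RPM of *B2M*, with the next heifer at 413 RPM and a gap of 0.778 of the range. In UG on 92% grain, heifer 178 had 492 RPM of *B2M*, with the next heifer at 364 RPM and a gap of 0.72 of the range. The *BOLA-A* values of heifer 170 did not pass this limit within DG, where the other heifers were themselves spread from 4.37 to 15.2 RPM.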

How the results depend on the processing

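For *BOLA-A* and *B2M*, 189 of 190 values under an alternative moved by less than a limit taken from the heifers. The exception was the *BOLA-A* share between heifers without heifer 170 (80.1%, where leaving out each heifer gave 80.1% to 94.5%). For a mean change the limit was its SD over heifers, and leaving out a single heifer cannot move the mean that far. For a share the limit came from the values with each heifer left out. The tally therefore cannot show that these values are robust to leaving out a heifer. The sign of every mean change held except for *BOLA-A* from 75% to 92% grain, whose change of -0.04 lay between -0.06 and 0.01 when heifers were left out (0.01 without heifer 262). The *B2M* change from 3% to 92% grain lay between -0.66 (TMM scaling) and -0.55. The *BOLA-A* change of -0.11 from 3% to 75% grain lay between -0.19 (TMM scaling, or without heifer 352) and -0.09, and the *BOLA-A* share between diets of 0.893% lay between 0.521% and 1.94% (1.94% under TMM scaling, 1.82% without heifer 352, 1.9% without heifer 170, 1.66% on the linear scale, 0.521% without heifer 236). Leaving out the 2 samples farthest from their diet was chosen after seeing the data. A pseudocount of 0.1 gave 307 called genes between 75% and 3% grain and 358 between 92% and 3% grain, against 177 and 238. edgeR called 198 and 310. The heifer as a replicate block, which uses the pairing, gave 14 genes between 92% and 75% grain, TMM scaling gave 2, and leaving out a heifer gave 0 to 8 (8 without heifer 236, 2 without 170, 1 without 182). The cause of these differences was not tested. The block moved no other count by over 1.5 times. Scaling to reference genes was not run, since their IDs could not be matched. Depth limits *BOLA-A* in heifer 170, where 26 and 29 reads on 75% and 92% grain do not place it on either side of 1 RPM, and hardly limits *B2M*.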
